A study of Mus musculus with 15 samples.

Results

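The enzymes that modify drugs, alcohols and other foreign or endogenous lipophilic compounds were followed at the RNA level through stomach development. The genes were chosen by name: cytochrome P450 genes of the families Cyp1 to Cyp4, cytosolic glutathione transferase (GST) genes, including the mitochondrial/peroxisomal Gstk1, UDP-glucuronosyltransferase (UGT) genes of families Ugt1 and Ugt2, and the alcohol dehydrogenase (ADH) genes Adh1, Adh4, Adh5 and Adh7. Of 116 gene symbols with such a name, 65 reached a level of at least 1 FPKM (fragments per kilobase of transcript and per unit of sequencing depth, a level per length) at 1 or more timepoints and were kept. They comprise 36 of 74 P450 genes, 19 of 20 GST genes, 7 of 18 UGT genes and 3 of 4 ADH genes, among 16902 genes that reached the same level and 44788 symbols in all. Members that just passed were Cyp2c70 (1.09 FPKM), Cyp2c29 (1.11 FPKM) and Cyp2b19 (1.18 FPKM). Those just below were Cyp4a31 (0.957 FPKM), Cyp2r1 (0.954 FPKM) and Cyp3a44 (0.827 FPKM). Adh4 did not exceed 0.0502 FPKM. Of the 51 genes that did not pass, 4 were listed at 0 at every timepoint.

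RNA-Seq was performed on whole stomachs of C57BL/6 mice, without any genetic or drug treatment named in the labels, at 15 timepoints with 1 transcriptome each. The timepoints are grouped into the RNA phases of the study: Ph1 comprises E12.5 to E17.5 (embryonic days, 6 timepoints), Ph2 comprises E18.5, postnatal days D1, D3 and D5 and postnatal weeks W1 and W2 (6 timepoints), and Ph3 comprises W3, W6 and W8 (3 timepoints). Timepoints serve as the replicates of a phase, so the spread within a phase includes change with age, and by the methods of the study stomachs of several embryos were pooled for a replicate up to E17.5, while after E18.5 a replicate was a single stomach, which is not stated for the RNA separately. The phases were drawn from these same transcriptomes, so the p-values below measure the distance between phases and do not test the phases independently. By the reporting form of the study, stomachs up to W2 were not selected by sex, whereas later ones came from males. Sex is not given for the RNA separately. If it holds for the RNA, age and sex cannot be told apart in the contrast of Ph2 and Ph3. The labels name stomach as the tissue, while the methods of the study name liver as the source of the RNA. All 11 gastric epithelial markers found in the files were present at every timepoint, and their summed level was 395 FPKM at E12.5 and 280251 FPKM at W8.

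P450 enzymes are membrane-bound monooxygenases that add oxygen to lipophilic substrates, and alcohol dehydrogenases oxidize alcohols, retinol among them, to aldehydes. GSTs couple electrophiles to glutathione and UGTs couple glucuronic acid to their substrates, which makes the products soluble enough to be excreted. The liver is the main site of this chemistry, and the gut lining, which meets food compounds before the liver does, carries a set of its own.

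Nearly all detoxifying enzyme genes had their maximum after Ph1. Some were close to it from the start: at E12.5 Gstm7 was at 98.1%, Cyp4f17 at 90.9%, Cyp4f16 at 90.4% and Gstm5 at 80.9% of the maximum, whereas others, such as Cyp2a5, Cyp2f2 and Cyp2w1, were at 0, 0.0737% and 2.48% of it at W8. Only Adh5 had its maximum in Ph1, whereas 60.5% of all 16902 genes peaked there. Of the 65 genes, 34 peaked in Ph2 (26.3% of all genes) and 30 peaked in Ph3 (13.1% of all genes). Of 36 P450 genes, 26 peaked in Ph2, 12 of them at D1, a library with high liver markers, and GST and UGT genes peaked mostly in Ph3 (14 of 19 and 5 of 7). The division between Ph2 and Ph3 shifts with the scaling: the sum of all FPKM was 745538 at E14.5 and 1344957 at W6, and after each transcriptome was divided by its median-ratio factor (1.27 at E12.5, 0.570 at W6), 23 members peaked in Ph2 and 41 in Ph3, against 21.6% and 37.9% of all genes, while Adh5 was still the only member with its maximum in Ph1. Of the P450 genes, 19 then peaked in Ph2 and 17 in Ph3.

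**Figure D1:**
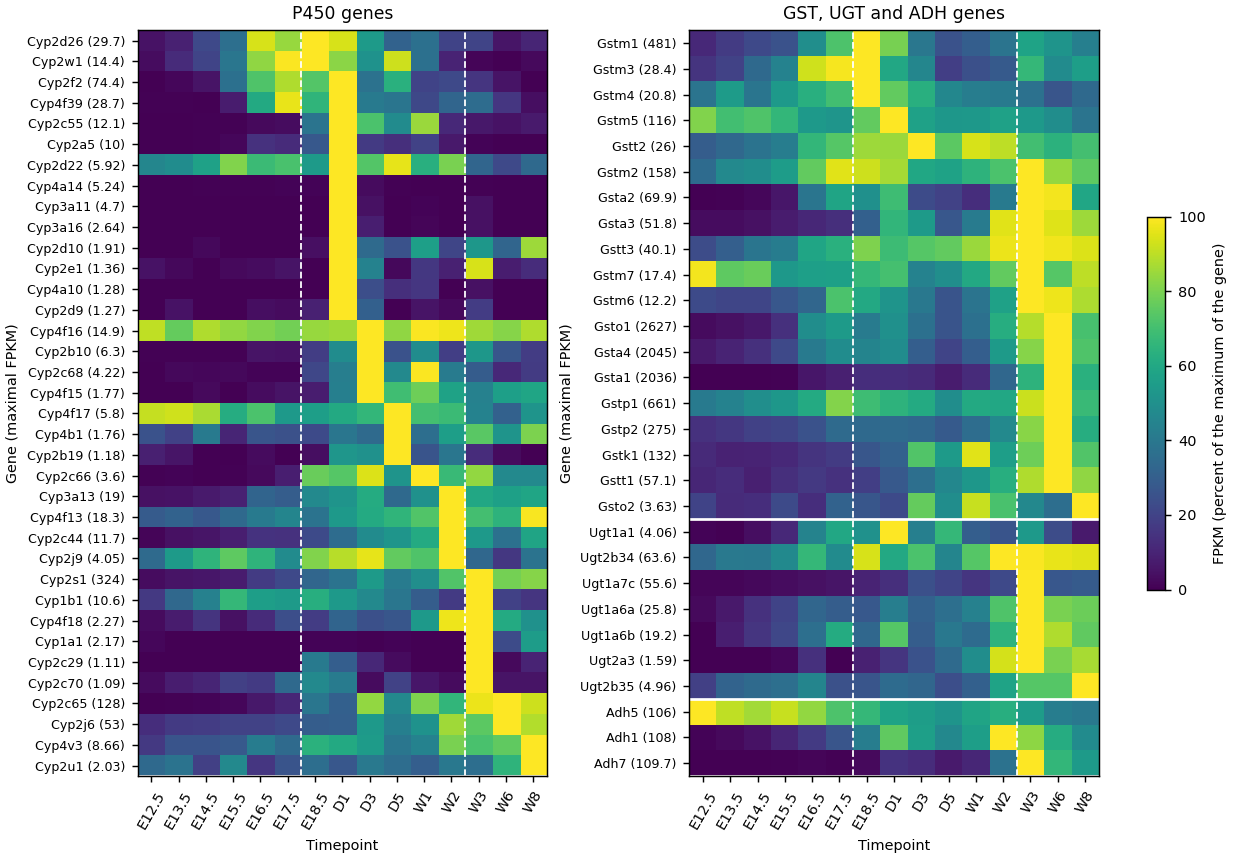
Level of each of the 65 genes at the 15 timepoints, as a percent of the gene's own maximum (colour), with the maximum in FPKM beside the name; genes are ordered by the timepoint of the maximum within their family, and dashed lines separate Ph1, Ph2 and Ph3. Of these genes, 14 have their maximum at D1 and 17 at W3, and only Adh5 has it in Ph1, although Gstm7 is nearly as high at E12.5 (17.1 FPKM) as at W3 (17.4 FPKM).

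The promoters printed here belong to genes whose values the following paragraphs turn on: both Cyp1 genes, the classic targets of the aryl hydrocarbon receptor, and a pair of neighbouring Cyp2c genes and a pair of Gsta genes with similar time courses. The sequences are RefSeq promoters (GRCm38.p6), 5′ to 3′ on the gene's strand, from 250 bases before to 30 bases after the annotated start. Capitals mark GCGTG, the core of the aryl hydrocarbon receptor response element, or TGACNNNGC, the core of the antioxidant response element bound by NRF2, on either strand.
Cyp1a1, chr9:57697363-57697642, plus strand: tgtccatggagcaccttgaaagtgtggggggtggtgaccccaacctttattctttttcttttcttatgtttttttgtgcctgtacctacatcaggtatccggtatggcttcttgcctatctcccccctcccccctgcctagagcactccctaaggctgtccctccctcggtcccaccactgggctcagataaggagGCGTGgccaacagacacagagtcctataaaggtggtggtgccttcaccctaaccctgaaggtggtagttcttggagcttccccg
Cyp1b1, chr17:79715032-79715311, minus strand: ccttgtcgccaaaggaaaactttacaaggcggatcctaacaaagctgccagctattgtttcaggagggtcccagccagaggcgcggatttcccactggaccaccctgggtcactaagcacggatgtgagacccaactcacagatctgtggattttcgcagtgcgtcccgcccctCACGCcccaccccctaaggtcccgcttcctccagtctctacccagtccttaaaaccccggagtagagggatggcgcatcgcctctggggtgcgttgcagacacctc
Cyp2c65, chr19:39060756-39061035, plus strand: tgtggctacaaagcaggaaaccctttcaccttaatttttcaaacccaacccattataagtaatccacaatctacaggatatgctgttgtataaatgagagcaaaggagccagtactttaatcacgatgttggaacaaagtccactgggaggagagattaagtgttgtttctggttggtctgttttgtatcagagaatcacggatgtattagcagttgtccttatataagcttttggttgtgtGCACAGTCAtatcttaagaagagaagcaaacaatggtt
Cyp2c66, chr19:39113648-39113927, plus strand: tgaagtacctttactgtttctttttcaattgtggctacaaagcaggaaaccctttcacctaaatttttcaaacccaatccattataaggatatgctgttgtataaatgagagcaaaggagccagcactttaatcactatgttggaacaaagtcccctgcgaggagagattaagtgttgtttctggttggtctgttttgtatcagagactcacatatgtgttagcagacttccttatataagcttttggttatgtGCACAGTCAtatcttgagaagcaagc
Gsta1, chr9:78230419-78230698, plus strand: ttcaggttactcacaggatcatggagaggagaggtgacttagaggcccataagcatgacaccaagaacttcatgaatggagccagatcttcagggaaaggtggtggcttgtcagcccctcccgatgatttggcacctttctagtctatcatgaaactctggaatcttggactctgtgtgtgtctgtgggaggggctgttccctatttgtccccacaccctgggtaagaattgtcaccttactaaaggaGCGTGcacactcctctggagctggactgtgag
Gsta2, chr9:78347116-78347395, minus strand: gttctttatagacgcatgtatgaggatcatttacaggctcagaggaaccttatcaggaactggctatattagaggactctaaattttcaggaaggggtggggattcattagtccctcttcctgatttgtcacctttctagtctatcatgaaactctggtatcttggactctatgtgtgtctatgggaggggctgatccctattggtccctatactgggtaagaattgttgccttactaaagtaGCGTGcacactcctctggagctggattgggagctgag
In the 300-base promoters, from 250 bases before to 50 after the start, Cyp2c65 and Cyp2c66 were identical at 256 bases (85.3%) and Gsta1 and Gsta2 at 232 bases (77.3%). Promoters of 56 of the 65 genes were found in the table. GCGTG was present in 16 of these 56 (28.6%) against 35.2% of 27025 genes, and TGACNNNGC in 8 (14.3%) against 14.0%. The letters TATAAA, the usual core of a TATA box, searched on both strands in the same windows, were found in 19 of 56 (33.9%) against 15.7% of genes, and lie 30 bases before the start of Cyp1a1. These are counts of letters in a short window and not of binding sites.

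By position, 54 of the members lie within 500 kb of another member, in 16 clusters. In GRCm38 coordinates of the files, the clusters include Ugt1a genes on chr1:88095001-88220002, 7 Gstm genes on chr3:107895854-108045091, Adh7, Adh1 and Adh5 on chr3:138199670-138455499, Gsta4, Gsta1 and Gsta2 on chr9:78191966-78347187 and 6 Cyp2c genes on chr19:39006938-40187286. The Gstt genes lie on chr10:75774122-75837419, Gstp1 and Gstp2 on chr19:4035411-4042221, Gsto1 and Gsto2 on chr19:47854989-47886305, and Cyp2b19, Cyp2a5 and Cyp2f2 on chr7:26757097-27133660. Time courses of neighbours were alike in some clusters and not in others. Pearson's r of log2(FPKM + 1) over the 15 timepoints, which share their libraries, was 0.94 to 0.96 among the 3 Gsta genes, and 0.51 to 0.96 among the Ugt1a genes. It ranged from -0.48 to 0.95 among the Gstm genes, and from -0.88 to 0.83 among the ADH genes.

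Between Ph1 and Ph2, 29 of the 65 genes were higher in Ph2 (44.6%, limma on log2(FPKM + 1), Benjamini-Hochberg adjusted p under 0.01), against 13.2% of all genes. Adh5 was the only member lower in Ph2, against 35.1% of all genes. The median log2 fold change was 0.74 over the members and -0.22 over all genes. After median-ratio scaling, which moves the median of all genes to 0.00, 31 members were higher (20.0% of all genes) and 0 were lower (18.7% of all genes; 1 at an unadjusted p under 0.05 in limma). The higher genes were 15 of 36 P450 genes, 8 of 19 GST genes, 4 of 7 UGT genes and 2 of 3 ADH genes. In 19 members every Ph2 value lay above every Ph1 value (7.79% of all genes), and in Adh5 alone every Ph2 value lay below (21.9% of all genes). Leaving out E12.5 gave 23 higher members, and leaving out E17.5 gave 36. Over all genes the count was 2229, and it was 1790 without E12.5 and 2590 without E17.5. Some members were kept only because of the phase in which they were high: 7 reached 1 FPKM in Ph2 alone, Cyp2b19 and Cyp2c55 of the called genes among them, and 4 in Ph3 alone, of which Cyp1a1 was called. Further genes called higher in Ph2 stayed below 1 FPKM throughout Ph1 and were admitted by later values alone. They were Cyp2b10, Cyp2c66, Cyp2c68, Cyp2d10, Cyp4f15 and Ugt2a3. For all these genes the contrast draws on the values that admitted them.

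Between Ph2 and Ph3, 7 members were higher in Ph3 (10.8%, against 3.41% of all genes) and 5 were lower (7.69%, against 37.4%). The higher genes were Adh7, Cyp1a1, Cyp2j6, Gstp2, Gstt1, Ugt2a3 and Ugt2b35. The 5 lower genes, Cyp2a5, Cyp2c55, Cyp2d22, Cyp2j9 and Cyp2w1, all belong to the Cyp2 family. With median-ratio scaling, 17 were higher (15.3% of all genes) and 3 were lower (10.2% of all genes), and Cyp2a5 and Cyp2d22 no longer passed. Without W6 the test called 3 higher and 3 lower members, while all genes went from 577 to 306 higher and from 6328 to 2842 lower. Without W2 it called 9 higher members (740 of all genes), and without W8 it called 3 lower (4708 of all genes). Across the phases 41 members differed (F test of limma, adjusted p under 0.01), a share of 63.1% against 70.8% of all genes, and 30 members were called in neither step. In 14 members every Ph3 value lay above every Ph2 value (4.63% of all genes), and in 9 every Ph3 value lay below (44.7% of all genes). 

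Several libraries stood apart from their neighbours in markers of other tissues, those of D1, W3 and W8 in most of a list. At D1, 14 of 15 liver markers were at least 2 times as high as at both E18.5 and D3. The sum of that list was 35.0 to 159.6 FPKM in Ph1, 266 to 1734 FPKM in Ph2, where D1 was highest, and 1547 to 2405 FPKM in Ph3, where Apoa1 held most of it and Fga and Cps1 were listed at 0 at both W6 and W8. At W8, 9 of 9 forestomach markers (keratins and other genes of squamous epithelium) were at most 0.5 times their W6 level, with a sum of 22.0 FPKM against 1591 FPKM at W6. The summed pancreas markers were 164 FPKM at D3 against 33.6 FPKM at D1 and 22.7 FPKM at D5, with Ctrb1 at 84.5 FPKM. The summed smooth muscle markers were 7771 FPKM at W3, against 4278 FPKM at W2 and 2728 FPKM at W6. At W3 the liver markers other than Apoa1, Ttr and Afp were also at least 2 times as high as at both W2 and W6. Alb was 65.4 FPKM at W3, against 1.81 FPKM at W2 and 0.869 FPKM at W6. In bulk samples, fewer cells of a type and less RNA per cell cannot be told apart. With D1 and W8 left out, a choice made after seeing the data, 25 members were higher and 1 lower in Ph2 (11.9% and 32.4% of all genes), and 3 were higher and 3 lower in Ph3 (1.95% and 23.6% of all genes), while 35 differed across the phases (65.6% of all genes). That check kept W3. Without W3 alone, 6 members were higher and 4 lower in Ph3 (451 and 6146 of all genes). With the ages split at birth in place of the study's border, 35 members differed (67.9% of all genes), 23 were higher and 1 lower after birth (10.8% and 30.6% of all genes), and from W3 on 5 were higher and 6 lower (2.57% and 28.9% of all genes).

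Each of the 3 expressed alcohol dehydrogenases was the highest at some timepoints. Adh5 was the highest at every timepoint of Ph1 and still at E18.5, D5 and W1, where Adh1 was close at W1 (61.8 and 60.4 FPKM), Adh1 was the highest at D1, D3 and W2, and Adh7 at W3, W6 and W8. Adh5, the glutathione-dependent formaldehyde dehydrogenase found in most cells, held 88.6% of the summed ADH level in Ph1, Adh1 held 46.6% in Ph2, and Adh7, the stomach class that oxidizes ethanol and retinol, held 40.5% in Ph3. The summed level was 104 ± 5.28 FPKM (SD, n = 6) in Ph1, 146 ± 37.7 FPKM (n = 6) in Ph2 and 199 ± 53.2 FPKM (n = 3) in Ph3.

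Adh5 was 106 FPKM at E12.5, with a lowest value of 76.3, a median of 93.5 and a highest value of 106 FPKM in Ph1. In Ph2 it was 55.0, 61.7 and 70.5 FPKM (lowest, median, highest), and in Ph3 58.6, 45.0 and 42.5 FPKM at W3, W6 and W8. Every Ph2 value lay below every Ph1 value, whereas W3 lay inside the range of Ph2. The log2 fold change from Ph1 to Ph2 was -0.56 ± 0.10 (SE, adjusted p = 0.000393), and with median-ratio scaling -0.28 (adjusted p = 0.0162). From Ph2 to Ph3 it was -0.36 ± 0.12 (adjusted p = 0.0226) and turned to 0.24 with that scaling.

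Adh1, a class I enzyme that oxidizes ethanol and retinol and is abundant in liver, was 1.24 FPKM at E12.5, with a median of 8.29 and a highest value of 28.6 FPKM in Ph1. In Ph2 its lowest, median and highest values were 45.8, 60.7 and 108 FPKM, and in Ph3 it was 89.6, 66.9 and 52.2 FPKM. Within Ph1 each later timepoint was higher than the one before it, and all Ph2 and Ph3 values exceeded those of Ph1. The log2 fold change to Ph2 was 2.95 ± 0.51 (adjusted p = 0.000291), and from Ph2 to Ph3 it was 0.06 ± 0.63 (adjusted p = 0.942).

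Adh7 did not exceed 1.63 FPKM in Ph1 (lowest 0.130, median 0.492). It was 2.66 FPKM at E18.5 and 15.9 FPKM at D1, reached 41.4 FPKM at W2, and was 109.7, 72.5 and 59.6 FPKM at W3, W6 and W8. The ranges of the 3 phases did not overlap. It was higher in Ph2 by 3.04 ± 0.43 (log2, adjusted p = 0.000103) and again in Ph3 by 2.62 ± 0.53 (adjusted p = 0.00106).

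**Figure D2:**
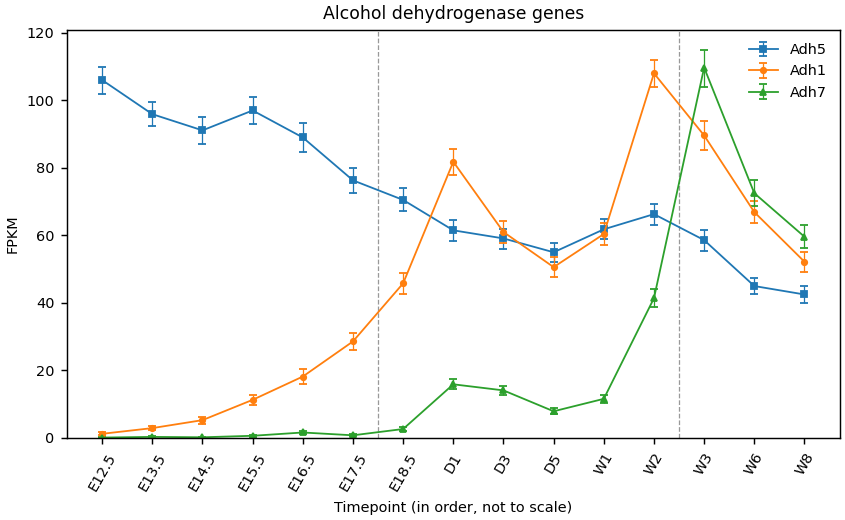
FPKM of Adh5 (squares), Adh1 (circles) and Adh7 (triangles) at each timepoint, with the confidence bounds of the files as error bars and dashed lines between the phases. Adh5 starts at 106 FPKM and ends at 42.5 FPKM, Adh1 is highest at W2 (108 FPKM) and Adh7 at W3 (109.7 FPKM).

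The summed P450 level was 142 ± 94.1 FPKM (n = 6) in Ph1, 426 ± 53.3 FPKM (n = 6) in Ph2 and 542 ± 52.5 FPKM (n = 3) in Ph3. A few genes made up this sum: Cyp2s1, Cyp2c65 and Cyp2j6 together held 83.3% in Ph3. Cyp2s1 (chr7:25802476-25816530), an epithelial P450 of the airways and gut, alone held 23.5% in Ph1, 36.6% in Ph2 and 52.0% in Ph3.

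Cyp2s1 was 11.2, 22.4 and 71.2 FPKM (lowest, median, highest) in Ph1, 107, 148 and 236 FPKM in Ph2, and 324, 256 and 265 FPKM at W3, W6 and W8. The 3 phases did not overlap. The log2 fold change was 2.44 ± 0.37 from Ph1 to Ph2 (adjusted p = 0.000136) and 0.89 ± 0.45 from Ph2 to Ph3 (adjusted p = 0.103). Its largest step between neighbouring timepoints was from E15.5 (24.7 FPKM) to E16.5 (55.9 FPKM).

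Cyp2c65, an enzyme of the arachidonic acid-metabolizing Cyp2c group, had the largest log2 fold change from Ph1 to Ph2 among the 65 genes. It was 0.268 FPKM at E12.5 and 13.7 FPKM at E17.5, with a Ph1 median of 1.59 FPKM. In Ph2 it was 39.1, 72.1 and 107 FPKM (lowest, median, highest), and in Ph3 124, 128 and 118 FPKM. No Ph1 value reached Ph2, and Ph3 lay just above the top of Ph2. The log2 fold change to Ph2 was 4.32 ± 0.52 (adjusted p = 6.16e-05), and to Ph3 0.82 ± 0.63 (adjusted p = 0.274).

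Its neighbour Cyp2c66, whose promoter and sequence it shares in part (20.2% of the 50-base words of Cyp2c65 transcripts occur in Cyp2c66, and 24.0% of those of Cyp2c66 in Cyp2c65), followed at a lower level. It did not exceed 0.308 FPKM in Ph1 and was between 1.87 and 3.60 FPKM in Ph2, then 3.01, 1.69 and 1.70 FPKM in Ph3. The log2 fold change to Ph2 was 1.80 ± 0.13. It is given without a p-value, since only values after Ph1 reached 1 FPKM and admitted the gene. The change to Ph3 did not pass (-0.28 ± 0.16, adjusted p = 0.141).

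Cyp2c55, which lies on the other side of Cyp2c65, was present in a window around birth. It was at most 0.404 FPKM in Ph1, between 1.41 and 12.1 FPKM in Ph2 with a median of 7.25 FPKM, and 0.786, 0.586 and 0.866 FPKM in Ph3. All Ph3 values lay below the lowest Ph2 value, that of W2, and above all Ph1 values. The differences were 2.66 ± 0.31 and -2.04 ± 0.38 on the log2 scale. They are given without a p-value, since only the Ph2 values of Cyp2c55 reached 1 FPKM and admitted the gene.

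Cyp2w1 (chr5:139352617-139358238), a P450 known from the fetal gut, was 0.483 FPKM at E12.5, 12 to 14.4 FPKM from E16.5 to E18.5, and 13.3 FPKM at D5. It was 1.45 FPKM at W2 and then 0.201, 0.0358 and 0.356 FPKM in Ph3. Ph1 and Ph2 overlapped, and Ph3 lay below both. The change from Ph1 to Ph2 did not pass (0.68 ± 0.56, adjusted p = 0.300), and from Ph2 to Ph3 it fell by 2.83 on the log2 scale (SE 0.69, adjusted p = 0.00320).

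Cyp2a5, which metabolizes coumarin and nicotine, did not exceed 1.42 FPKM in Ph1. It was between 0.676 and 2.74 FPKM at 5 timepoints of Ph2 and 10 FPKM at D1, and 0.109, 0.0280 and 0 FPKM in Ph3. Its maximum coincides with the D1 library in which the liver markers were high, and 38.6% of its 50-base words occur in other genes, mostly Cyp2a4. It was higher in Ph2 by 1.25 ± 0.37 (adjusted p = 0.00947), and it fell by 1.66 in Ph3 (SE 0.46, adjusted p = 0.00697). The part of the liver markers in these differences was not tested.

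Cyp2d22 and Cyp2j9 were expressed at similar, low levels before W3. Cyp2d22 was between 2.72 and 4.80 FPKM in Ph1 and between 3.22 and 5.92 FPKM in Ph2, and 1.92, 1.30 and 2.02 FPKM in Ph3. Cyp2j9 was between 1.40 and 3.05 FPKM in Ph1 and between 2.93 and 4.05 FPKM in Ph2, and 1.36, 0.661 and 1.54 FPKM in Ph3. For both genes all Ph3 values lay below all Ph2 values. Cyp2d22 fell by 1.02 on the log2 scale (SE 0.18, adjusted p = 0.000453; adjusted p = 0.0136 after median-ratio scaling), and Cyp2j9 fell by 1.05 (SE 0.17, adjusted p = 0.000263; adjusted p = 0.00302 after scaling). Cyp2j6, the neighbour of Cyp2j9 and like it an epoxygenase of fatty acids, took the other direction. It was 7.02 to 11.7 FPKM in Ph1, 15.7 to 45.5 FPKM in Ph2, and 39.7, 53.0 and 46.8 FPKM in Ph3, with steps of 1.26 ± 0.21 (adjusted p = 0.000263) and 0.90 ± 0.26 (adjusted p = 0.00954).

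The Cyp1 genes, which oxidize polycyclic aromatic hydrocarbons and are induced through the aryl hydrocarbon receptor, had unlike patterns. Cyp1a1 did not exceed 0.0401 FPKM at any of the 12 timepoints up to W2, a level of about 1 fragment. It was 2.17 FPKM (bounds 1.71 to 2.63, about 90 fragments) at W3, 0.50 FPKM (about 26 fragments) at W6 and 1.20 FPKM (about 61 fragments) at W8. Its presence was thus seen at all 3 timepoints of Ph3 and at none before, beyond single fragments, and the difference between Ph3 and Ph2 was 1.11 ± 0.16 on the log2(FPKM + 1) scale. It is given without a p-value, since the Ph3 values alone admitted the gene. The GCGTG shown in its promoter lies 54 bases before the RefSeq start, which falls inside the gene's span in the files (chr9:57687928-57703824).

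Cyp1b1 was present throughout, between 1.76 and 7.07 FPKM in Ph1 and between 1.79 and 6.65 FPKM in Ph2. In Ph3 it was 10.6 FPKM at W3, and 2.07 and 1.65 FPKM at W6 and W8. W3 was the highest of all timepoints and W8 the lowest. It did not pass in either step (-0.10 ± 0.36, adjusted p = 0.83, and -0.17 ± 0.45, adjusted p = 0.753), and the sign of each change turned with median-ratio scaling (0.12 and 0.29).

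W3 was also the timepoint at which 5 members exceeded both W2 and W6 by at least 1 on the log2(FPKM + 1) scale, against 0.497% of all genes: Cyp1a1, Cyp1b1, Cyp2c29, Cyp2e1 and Ugt1a7c. These genes were chosen from their values, and Cyp2c29 reached 1 FPKM at W3 alone. The liver marker Alb was 65.4 FPKM at W3 against 1.81 FPKM at W2 and 0.869 FPKM at W6. Of the listed liver markers, all but Afp and Apoa1 were higher at W3 than at both W2 and W6. Afp was lower at W3 (0.376 FPKM) than at W2 (0.487 FPKM) and at W6. Apoa1, which held most of the liver sum in Ph3, was 1259 FPKM at W3 against 541 FPKM at W2 and 2270 FPKM at W6. All 6 smooth muscle markers were also higher at W3 than at W2 and W6, among them Actg2 (2433 FPKM against 807 and 560.3 FPKM) and Des (697 FPKM against 239 and 279 FPKM). The part of these tissues in the values of the 5 genes was not tested. Cyp2e1, an ethanol-oxidizing P450 of the liver, was 1.36 FPKM at D1 and 1.28 FPKM at W3, the same libraries in which Alb was highest, and at most 0.601 FPKM elsewhere.

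**Figure D3:**
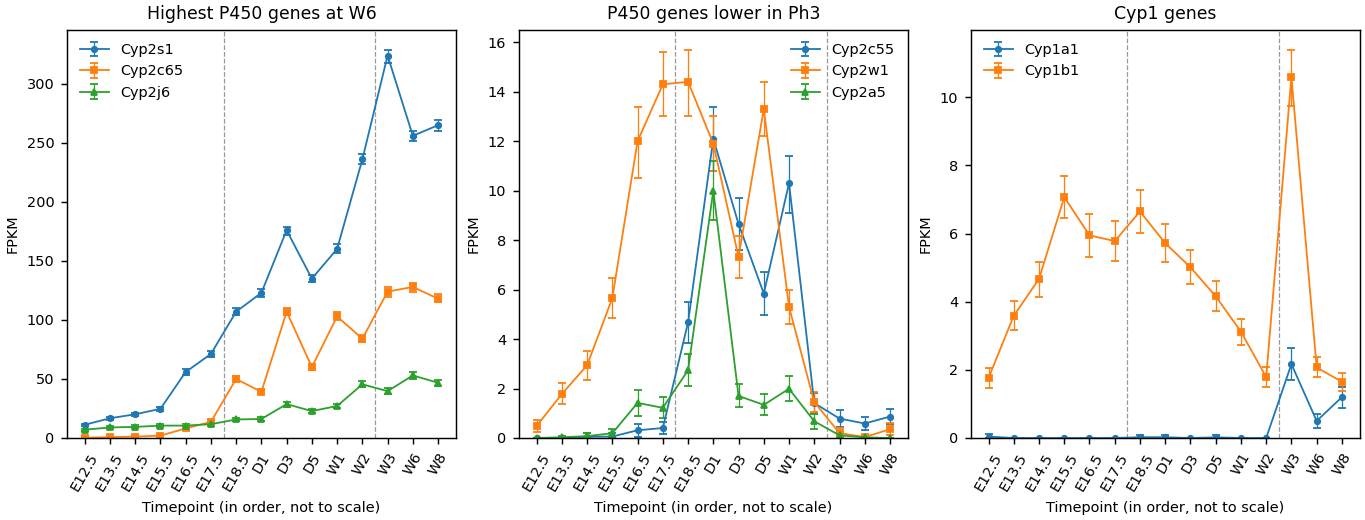
FPKM with the confidence bounds of the files at each timepoint for the highest P450 genes (left: Cyp2s1, Cyp2c65, Cyp2j6), genes lower in Ph3 (middle: Cyp2c55, Cyp2w1, Cyp2a5) and the Cyp1 genes (right). Cyp2s1 reaches 324 FPKM at W3, the middle genes are all under 1 FPKM in Ph3, and Cyp1a1 leaves the baseline only at W3.

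By their maximal level, the highest of the Cyp3 and Cyp4 genes were Cyp3a13 and Cyp4f39, although the mean of Cyp4f16 was above that of Cyp4f39 in Ph1 (12.4 and 7.95 FPKM), and the means of Cyp4f13 (14.3 FPKM) and Cyp4f16 (12.7 FPKM) were above it in Ph3 (5.29 FPKM). Cyp3a13, a drug-metabolizing P450 expressed outside the liver as well, was 0.844 to 6.14 FPKM in Ph1, 6.46 to 19.0 FPKM in Ph2, and 11.4, 10.8 and 11.2 FPKM in Ph3. All of its Ph2 and Ph3 values lay above Ph1, and the step to Ph2 was 1.82 ± 0.34 (adjusted p = 0.000465), while the step to Ph3 was 0.10 ± 0.41 (adjusted p = 0.856).

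Cyp4f39, a hydroxylase of very long fatty acids in the skin barrier, was at most 0.149 FPKM up to E14.5 and 2.22 FPKM at E15.5, then 17.4 FPKM at E16.5 and 27.8 FPKM at E17.5. It was between 6.17 and 28.7 FPKM in Ph2, and 10.2, 4.58 and 1.04 FPKM in Ph3. Neither step passed (1.91 ± 0.81, adjusted p = 0.0508, and -1.45 ± 0.99, adjusted p = 0.217). Its course ran beside the sum of the forestomach markers, which was 58.6 FPKM at E12.5, 1765 FPKM at E15.5, 9499 FPKM at E17.5 and 22.0 FPKM at W8. Krt13 and Krt4 held most of that sum at E17.5 (5133 and 2595 FPKM). Not all listed markers ran alike: Krt1 and Krt10 were highest at D5 (1000 and 988 FPKM), where Cyp4f39 was 11.2 FPKM. Cyp2f2, a P450 of airway epithelium that activates naphthalene, moved with the summed markers too: it was 0.182 FPKM at E12.5, 65.5 FPKM at E17.5, 74.4 FPKM at D1, 4.02 FPKM at W6 and 0.0548 FPKM at W8. From W6 to W8, Cyp2f2 and Cyp4f39 were the only members to drop by at least 1 on the log2(FPKM + 1) scale (1.80% of all genes). The part of forestomach tissue in these values was not tested.

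At D1, 5 of the 65 members exceeded both neighbouring timepoints by at least 1 on the log2(FPKM + 1) scale, against 1.30% of all genes. They were Cyp2a5, Cyp3a11, Cyp3a16, Cyp4a14 and Ugt1a6b. Of these, Cyp3a11, Cyp3a16 and Cyp4a14 reached 1 FPKM at D1 alone, so the value that admitted them is counted here again. Cyp3a11, a main drug-metabolizing P450 of the adult liver, was 4.70 FPKM at D1 (about 166 fragments) and at most 0.209 FPKM at every other timepoint. Cyp4a14, a fatty acid hydroxylase induced through PPARalpha, was 5.24 FPKM (about 207 fragments) at D1 and at most 0.162 FPKM elsewhere. Cyp3a16, the perinatal liver form, was 2.64 FPKM and at most 0.223 FPKM elsewhere. Cyp4a10 was 1.28 FPKM at D1 and at most 0.307 FPKM elsewhere. Alb was 461 FPKM at D1 against 14.6 FPKM at E18.5 and 25.8 FPKM at D3, and its part in these D1 values was not tested.

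**Figure D4:**
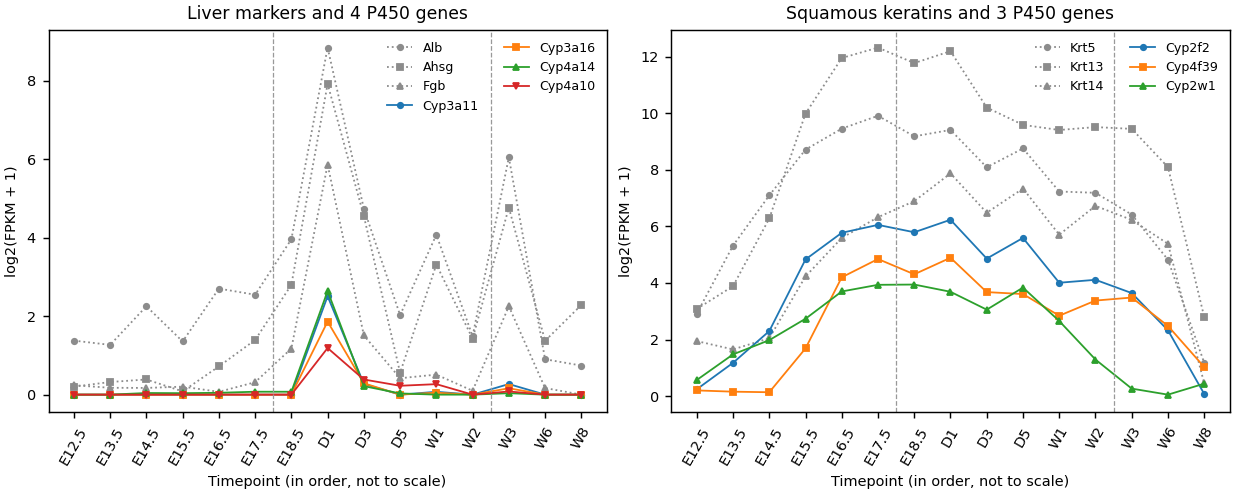
Level on the log2(FPKM + 1) scale at each timepoint of liver markers (left, grey dotted: Alb, Ahsg, Fgb) with 4 P450 genes, and of squamous keratins (right, grey dotted: Krt5, Krt13, Krt14) with 3 P450 genes. Cyp3a11, Cyp3a16, Cyp4a14 and Cyp4a10 stand out at D1, where Alb is 461 FPKM, and Cyp2f2 and Cyp4f39 are at or below 1.04 FPKM at W8, where Krt5 is 1.26 FPKM. Cyp2w1, the other gene on the right, is higher at W8 (0.356 FPKM) than at W6 (0.0358 FPKM).

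GST genes were by far the most abundant of the 4 families. Their summed level was 1980 ± 1330 FPKM (n = 6) in Ph1, 3390 ± 892 FPKM (n = 6) in Ph2 and 7166 ± 1268 FPKM (n = 3) in Ph3, and 0.613% of all FPKM in Ph3. Gsto1, Gsta4 and Gsta1 held 77.5% of it in Ph3. Of the 19 genes, 8 were higher in Ph2 (against 13.2% of all genes), 2 were higher in Ph3 (against 3.41%), 0 were lower in either step by limma (against 35.1% and 37.4%), and 11 passed in neither. At an unadjusted p under 0.05, 0 were lower in Ph2 and 2 in Ph3. After median-ratio scaling 8 were higher in Ph2 (20.0% of all genes) and 6 in Ph3 (15.3%).

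Gsto1, an omega-class enzyme that reduces dehydroascorbate and methylated arsenic, was 77.1 FPKM at E12.5 and 368 FPKM at E15.5, and reached 1285 FPKM at E16.5. It was 679, 1035 and 1632 FPKM (lowest, median, highest) in Ph2, and 2332, 2627 and 1861 FPKM in Ph3. All Ph3 values lay above all others, while Ph1 and Ph2 overlapped. The steps were 1.74 ± 0.62 (adjusted p = 0.0236) and 1.07 ± 0.76 (adjusted p = 0.234), neither of which passed, although the F test across the phases did (adjusted p = 0.00684).

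Gsta4, which conjugates the lipid peroxidation product 4-hydroxynonenal, was abundant at every timepoint. It was 141 FPKM at E12.5 and 997 FPKM at E17.5, between 419.6 and 1115 FPKM in Ph2, and 1671, 2045 and 1480 FPKM in Ph3. Ph3 again lay above every other timepoint, whereas 5 of the 6 Ph2 values lay inside the range of Ph1 and only W2 lay above it. The steps were 0.94 ± 0.42 (adjusted p = 0.0649) and 1.22 ± 0.52 (adjusted p = 0.0559).

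Gsta1, an alpha-class enzyme that conjugates electrophiles and reduces peroxides, had the widest range of the abundant GST genes. It was 2.51, 10.8 and 177 FPKM (lowest, median, highest) in Ph1, 154, 257 and 677 FPKM in Ph2, and 1313, 2036 and 1296 FPKM in Ph3. Of the Ph1 values only that of E17.5 exceeded the lowest value of Ph2, and Ph3 lay apart. The step to Ph2 was 3.91 ± 0.87 (adjusted p = 0.00148), and the step to Ph3 was 2.44 ± 1.06 (adjusted p = 0.0602). Its reads are uncertain: 89.7% of the 50-base words of its transcripts occur in other genes and 82.9% in Gm3776, a gene that the files list at similar values (1161 FPKM at W3, 1663 FPKM at W6, 1061 FPKM at W8). Gsta2 was lower by an order of magnitude or more in Ph3, at 69.9, 68.8 and 41.4 FPKM, and shares 47.4% of its words with other genes.

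Of the 4 alpha-class genes, Gsta1 and Gsta3 passed in Ph2, and after median-ratio scaling Gsta3 also passed in Ph3 (adjusted p = 0.00912). Gstm1, the most abundant member of the mu class and a widely acting conjugating enzyme, was 55.5 FPKM at E12.5 and 346 FPKM at E17.5, was highest at E18.5 (481 FPKM), and was then between 122 and 382 FPKM through W2. In Ph3 it was 279, 249.6 and 207 FPKM, within the range of Ph2. Neither step passed (0.75 ± 0.43, adjusted p = 0.136, and 0.14 ± 0.52, adjusted p = 0.830). None of the 7 Gstm genes passed in either step with limma (at an unadjusted p under 0.05, 0 in Ph2, and 2 higher and 2 lower in Ph3), and after median-ratio scaling Gstm6 and Gstm7 were higher in Ph3. In Gstm6 every Ph3 value (10.7 to 12.2 FPKM) lay above every Ph2 value (3.18 to 7.36 FPKM).

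Gstp1, the pi-class enzyme typical of fetal and epithelial tissue, was already at 269 FPKM at E12.5. It was 269 to 539 FPKM in Ph1, 325 to 457 FPKM in Ph2, and 609, 661 and 448 FPKM in Ph3, with W8 inside the range of Ph2. The steps were 0.18 ± 0.16 (adjusted p = 0.332) and 0.50 ± 0.19 (adjusted p = 0.0384), and only the latter passed after scaling (1.11, adjusted p = 0.00164). Gstp2, its neighbour, was 39.7 to 95.4 FPKM in Ph1, 77.6 to 129.8 FPKM in Ph2, and 226, 275 and 171 FPKM in Ph3, and was higher at each step (0.73 ± 0.19, adjusted p = 0.00444, and 1.18 ± 0.24, adjusted p = 0.00102). Gstp1 and Gstp2 share 51.0% and 50.4% of their words, mostly with each other, so the division of reads between them is uncertain.

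Gstk1 and Gstt1 rose in Ph2. Gstk1 (chr6:42245935-42250441), the kappa-class enzyme of mitochondria and peroxisomes, was 12.7 to 22.8 FPKM in Ph1, 35.3, 73.1 and 126 FPKM (lowest, median, highest) in Ph2, and 103, 132 and 96.3 FPKM in Ph3. Ph1 lay below every later value. Its step to Ph2 was 1.99 ± 0.27 (adjusted p = 8.05e-05), and its step to Ph3 was 0.69 ± 0.33 (adjusted p = 0.0824). Gstt1, a theta-class enzyme that acts on halogenated alkanes, was 4.92 to 9.52 FPKM in Ph1, 10.7 to 35.7 FPKM in Ph2, and 50.2, 57.1 and 47.6 FPKM in Ph3. The phases of Gstt1 did not overlap, and both steps passed (1.49 ± 0.24, adjusted p = 0.000172, and 1.21 ± 0.29, adjusted p = 0.00286).

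UGT genes were less abundant. Their summed level was 42.6 ± 15.7 FPKM (n = 6) in Ph1, 81.1 ± 16.7 FPKM (n = 6) in Ph2 and 136 ± 30.3 FPKM (n = 3) in Ph3. Ugt2b34 held 68.7% of it in Ph1 and 45.3% in Ph3. It was 21.3 to 42.4 FPKM in Ph1, 29.0 to 63.6 FPKM in Ph2, and 63.3, 61.4 and 60.7 FPKM in Ph3, where the values differed little. Its step to Ph2 was 0.66 ± 0.18 (adjusted p = 0.00672), and its step to Ph3 was 0.43 ± 0.23 (adjusted p = 0.115).

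Ugt1a7c, a glucuronosyltransferase of the gut, was 0.751 to 3.19 FPKM in Ph1 and 5.48 to 13.6 FPKM in Ph2, without overlap, and 55.6, 15.0 and 16.0 FPKM in Ph3. The step to Ph2 was 1.99 ± 0.32 (adjusted p = 0.000191), and the step to Ph3 was 1.27 ± 0.39 (adjusted p = 0.0132; 1.85 and adjusted p = 0.00151 after scaling). The mouse Ugt1a genes use separate first exons and share all later exons, and 54.2% of the words of Ugt1a7c and 96.0% of those of Ugt1a6a occur in other genes, so levels within this cluster are uncertain. Ugt2b35 was 0.932 to 2.26 FPKM in Ph1 and 1.20 to 2.87 FPKM in Ph2, and 3.65, 3.66 and 4.96 FPKM in Ph3, above all others. It did not pass in Ph2 (0.06 ± 0.15, adjusted p = 0.741) and was higher in Ph3 by 0.92 ± 0.18 (adjusted p = 0.000941). Ugt2a3 did not exceed 0.218 FPKM in Ph1 and was 1.59, 1.27 and 1.38 FPKM in Ph3.

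**Figure D5:**
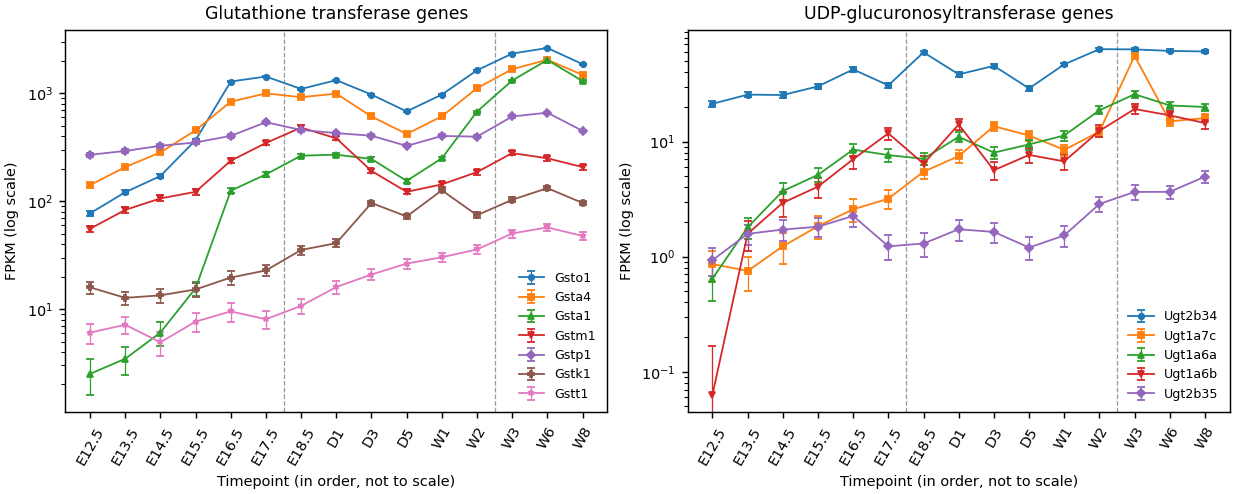
FPKM on a log scale, with the confidence bounds of the files, of 7 GST genes (left) and 5 UGT genes (right) at each timepoint. Gsto1 is between 1861 and 2627 FPKM in Ph3, Gsta1 covers the widest range, Gstm1 is highest at E18.5, and Ugt1a7c stands out at W3 (55.6 FPKM).

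The members took their largest step up at a few places in the series. Of 65 genes, 13 had it between E15.5 and E16.5 (20.0%, against 7.08% of all genes), among them Cyp2s1, Cyp2w1, Cyp3a13, Cyp4f39, Gsta1, Gsta2, Gsta4, Gstm1 and Gsto1. Between E18.5 and D1, 11 did (16.9%, against 9.51%), 9 of them genes that also had their maximum at D1. Another 11 did between W2 and W3 (16.9%, against 4.31%), Cyp1a1, Gstp1, Gstp2 and Ugt1a7c among them. Of these genes, Cyp2d9, Cyp3a11, Cyp3a16, Cyp4a10 and Cyp4a14 reached 1 FPKM at D1 alone, and Cyp2c29 and Cyp2c70 at W3 alone. For them the step draws on the value that admitted them. Since each timepoint is 1 transcriptome, a step between neighbours has no replicate check. At the first of these steps, forestomach markers went from a sum of 1765 to 6509 FPKM and gastric epithelial markers from 789 to 2185 FPKM, and their part in the step was not tested. At E12.5, 30 of the 65 members were at or above 1 FPKM, against 14114 of the 16902 genes. At a single timepoint only, 8 members were so, and 57 were so at 2 or more, against 16123 of the 16902 genes. At all 15 timepoints 29 members were so, and 27 had reached 50% of their maximum before birth. For these last counts the share over all genes was not computed.

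Genes that work with these enzymes were read from lists, of which 72 of 81 genes reached 1 FPKM. In Ph2, 35 were higher (48.6%, against 13.2% of all genes) and 6 were lower (8.33%, against 35.1%), and in Ph3, 9 were higher (against 3.41% of all genes) and 14 lower (19.4%, against 37.4%). With median-ratio scaling the counts were 40 and 2 in Ph2 (20.0% and 18.7% of all genes), and 24 and 2 in Ph3 (15.3% and 10.2%). Among enzymes that supply or finish the reactions, 4 of 8 were higher in Ph2 and 0 lower by limma (6 and 0 at an unadjusted p under 0.05). They include Ephx1 and Ephx2, the epoxide hydrolases (1.86 and 2.27, adjusted p = 0.00288 and 6.55e-05), Por, the electron donor of P450 enzymes (0.80, adjusted p = 0.000751), and Ugdh, which makes UDP-glucuronic acid (0.60, adjusted p = 0.00461). Of 12 genes for glutathione synthesis and other glutathione enzymes, 6 were higher and 1 was lower in Ph2, with Mgst2 and Mgst3, membrane-bound glutathione transferases, highest (2.86 and 2.45, adjusted p = 0.000625 and 0.000374). Gstcd was lower in Ph2 (-0.89, adjusted p = 0.000149).

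Of 20 further enzymes of drug metabolism, 12 were higher in Ph2 and 0 lower by limma (17 and 0 at an unadjusted p under 0.05), led by the sulfotransferase Sult1c2 (4.77, adjusted p = 5.35e-05) and the carboxylesterase Ces2c (4.74, adjusted p = 4.23e-05), and 5 were higher and 2 lower in Ph3, led by Ces1f (3.09, adjusted p = 5.82e-05) and Fmo1 (-1.82, adjusted p = 0.00433). After median-ratio scaling 8 were higher and 0 lower in Ph3 by limma (12 and 2 at an unadjusted p under 0.05), and Fmo1 (-1.45) was no longer called. Of 10 aldehyde dehydrogenases, which take over the product of the ADH reaction, 4 were higher and 1 lower in Ph2, and 2 were higher and 3 lower in Ph3. Aldh3a1, an aldehyde dehydrogenase known from cornea and stomach, was higher in Ph3 by 4.39 (adjusted p = 0.00106), and Aldh1a2, which makes retinoic acid in the embryo, was lower by 1.55 on the log2 scale (-1.55, adjusted p = 0.000173).

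The regulators did not move as 1 group. Of the 3 measured genes of the aryl hydrocarbon receptor list, 2 were lower in Ph2 (Arnt and Tiparp, against 35.1% of all genes) and 2 in Ph3 (against 37.4%). Ahr itself fell by 1.09 on the log2 scale in Ph3 (adjusted p = 0.000969), and its partner Arnt fell by 0.81 (adjusted p = 0.000638); all 4 calls were lost with median-ratio scaling. Of 6 genes of the NRF2 pathway, 2 were higher and 1 lower in Ph2, with the quinone reductase Nqo1 at 3.93 (adjusted p = 5.35e-05) and Txnrd1 at -0.42 (adjusted p = 0.00960). The call of Txnrd1 was lost with median-ratio scaling (-0.14). Of 7 nuclear receptors of drug metabolism, 5 were higher in Ph2 and 0 lower by limma (6 and 1 at an unadjusted p under 0.05), led by the bile acid receptor Nr1h4 (2.05, adjusted p = 7.25e-05) and the xenobiotic receptor Nr1i2 (1.87, adjusted p = 0.000416), and Rxra, their common partner, was at -0.43 in Ph3 (adjusted p = 0.00211), a call that was lost and a sign that turned with median-ratio scaling (0.16). Of 6 efflux transporters, Abcc3 (2.39, adjusted p = 0.000101) and Abcb1a (0.30) were higher in Ph2. Abcb1a is given without a p-value, since it reached 1 FPKM only in Ph2, at D5 (1.05 FPKM). Abcg2 was lower in both steps (-1.04, adjusted p = 0.000146, and -1.43, adjusted p = 0.000121).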

How the data were processed

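One FPKM table per timepoint was read. The authors deposited FPKM and its confidence bounds for each gene entry. By the methods of the study, reads were filtered with FastQC, mapped to GRCm38 with HISAT2 and quantified with StringTie, whereas the submitters' processing notes name Bowtie 0.12.2 and the layout of the tables is that of Cufflinks. Entries of the same symbol were summed (Gstp1 and Gstp2 have 2 entries each).

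The test was limma 3.58.1 in R 4.3.3 on log2(FPKM + 1), over the 16902 genes that reached 1 FPKM, with an F test across the phases, contrasts between consecutive phases and Benjamini-Hochberg adjustment over all genes at 0.01; fold changes on this scale understate changes of low genes. On simulated data the call was checked. Genes named were the 4 ADH genes, the Cyp1 genes, the highest member of each class and up to 5 genes with the largest rise and fall in each contrast; genes described outside this rule were chosen after their values were seen. From the lists, up to 2 genes per list and direction were named, and Ephx1, Por, Ugdh and Arnt beside them. Members and lists were chosen with earlier results of these data known.

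The files do not state depth; judged by entries of single fragments, it was 0.702 to 1.17 times that of E12.5. Fragment numbers assume that the bounds are Poisson at 2.0 SD, and bounds cover counting error only. Reads shared by similar genes were estimated as the share of 50-base words in GENCODE transcripts found in another gene. Alternatives were other pseudocounts, filters, scalings and phase borders, and leaving out timepoints.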

Additional observations from a re-analysis of the deposited data

Results flagged for a closer look

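In each phase of 6 timepoints, the highest and lowest values of each member were compared with the spread of the others, and 10 of 126 groups held a timepoint far from the rest. The rule flags about 1 in 20 groups of independent, normally spread values. Here the timepoints follow age and some values are 0, so that rate is no measure for the 10 groups. Of these, 4 were at D1, a library with high liver markers: Cyp3a11 (4.70 FPKM), Cyp3a16 (2.64 FPKM), Cyp4a10 (1.28 FPKM) and Cyp4a14 (5.24 FPKM). Each of these 4 genes reached 1 FPKM at D1 alone, so the flagged value is the one that admitted the gene. In Ph1, Cyp2c66 (0.308 FPKM) and Gstm6 (8.73 FPKM) stood above the others at E17.5, Ugt2a3 (0.218 FPKM) at E16.5, Cyp2d10 (0.0447 FPKM) at E14.5 and Cyp1a1 (0.0401 FPKM) at E12.5, the last 2 at the level of about 1 fragment. In Ph2, Cyp4f17 (5.80 FPKM) stood above the others at D5.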

How the results depend on the processing

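The numbers of members that differed across the phases, or were higher in Ph2, stayed within 1.5 times of the reported ones under every alternative. Leaving out each timepoint in turn gave 35 to 43 members that differed, 23 to 36 higher and 1 lower in Ph2, and 3 to 9 higher and 3 to 6 lower in Ph3. Over all 16902 genes it gave 10657 to 12326 that differed, and 1736 to 2590 higher and 5011 to 6444 lower in Ph2. In Ph3 it gave 306 to 740 higher and 2842 to 6870 lower genes. Median-ratio scaling gave 0 lower in Ph2 (18.7% of all genes), and 17 higher and 3 lower in Ph3 (15.3% and 10.2%). Quantile normalization gave 14 higher and 2 lower in Ph3 (1728 and 1293 of all genes). Leaving out D1 and W8, chosen after seeing the data, gave 3 higher and 3 lower in Ph3 (1.95% and 23.6% of all genes). The cause was not tested.

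Among the named members, signs that turned belonged to changes that did not pass. Among the listed partner and regulator genes, 3 falls that passed in Ph3 turned with median-ratio scaling: Rxra (-0.43 to 0.16), Keap1 (-0.50 to 0.08) and Gstz1 (-0.41 to 0.17). From Ph2 to Ph3, leaving out each timepoint gave log2 fold changes of -0.14 to 0.25 for Adh1, -0.85 to 0.22 for Cyp1b1, -0.03 to 0.26 for Cyp3a13 and -0.03 to 0.37 for Gstm1, and from Ph1 to Ph2 it gave -0.29 to 0.08 for Cyp1b1 and -0.05 to 0.13 for Ugt2b35. A split of the ages at birth gave -0.04 for Adh1 from Ph2 to Ph3. Median-ratio scaling gave 0.24 for Adh5 from Ph2 to Ph3, and 0.12 and 0.29 for Cyp1b1 in the earlier and the later step. Quantile normalization gave -0.02 for Cyp1a1 from Ph1 to Ph2 and 0.41 for Cyp1b1 from Ph2 to Ph3. The phases of the proteome gave 0.02 for Cyp1b1 and -0.02 for Ugt2b35 from Ph1 to Ph2. Leaving out D1 and W8 gave 0.29 for Cyp1b1 from Ph2 to Ph3. Of 50 changes of named genes, median-ratio scaling lost 3 calls, quantile normalization 4, the split at birth 5 and leaving out D1 and W8 6. No paired analysis was possible because each timepoint has 1 transcriptome and the labels give no replicate numbers. Depth limits values below about 0.05 FPKM, the level of a single fragment.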
